A study of Homo sapiens with 6 samples.

Results

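The genes examined here are the amino acid transporters of the solute carrier families SLC1, SLC3, SLC6, SLC7, SLC36, SLC38 and SLC43. They were taken from the table of gene counts by symbol, and are 59 of its 23346 genes. Some carry related cargo, such as the taurine carrier SLC6A6, the creatine carrier SLC6A8, and the GABA and monoamine carriers of the SLC6 family.

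The study asked which genes respond to loss of basonuclin-2 (BNC2), a zinc-finger protein that is generally held to be a transcription factor. BT549, an established and mesenchymal-like breast cancer cell line that the labels give as wild type, was kept in RPMI medium with serum. Cells received 20 nM of an equal mix of 3 BNC2 siRNAs or 20 nM of negative control (NC) siRNA, and poly(A) RNA was sequenced 6 d after transfection. Each condition had 3 biological replicates, so that a result describes 1 cell line and a transient, partial knockdown. The labels and the methods name different Lipofectamine reagents for the transfection of siRNAs.

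Amino acid transporters set how fast a cell takes up, exchanges and stores its amino acids. Several light chains of the SLC7 family reach the plasma membrane only when bound to a heavy chain of the SLC3 family, and the heavy chain SLC3A2 (CD98) serves most of them. Other carriers sit on lysosomes and report amino acid supply to the growth kinase complex mTORC1, and many transporter genes are induced by the factor ATF4 when amino acids run short.

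The 6 libraries held 16093978 to 18246254 counts on genes. BNC2 itself ranged from 51.5 to 65.6 CPM with NC siRNA and from 35.5 to 41.6 CPM with BNC2 siRNA, where CPM stands for counts scaled to a common library size with edgeR's TMM factors. All 5 mesenchymal markers tested were present, with a summed level of 6367 to 6461 CPM in controls and 6501 to 6755 CPM after knockdown. Within this sum, most of which is VIM and SPARC, all 5 were called, CDH2 (2.57-fold), FN1 (1.31-fold), ZEB1 (1.27-fold) and VIM (1.13-fold) as higher and SPARC (0.697-fold) as lower. Of 7 epithelial markers 1, KRT18, passed the filter on low counts, and the 7 summed to 3.85 to 5.80 CPM with NC siRNA and 0.395 to 0.814 CPM with BNC2 siRNA. CDH1, EPCAM, ESRP1 and GRHL2 had at most 1 count in a library. Of 8 blood, endothelial and neural markers 1, CD14, passed, and the 8 summed to 1.99 to 2.59 CPM and 0.903 to 1.34 CPM, with CDH5 and SOX10 at 0. The part of these falling markers in the results below was not tested. In RNA from bulk cells, fewer cells of a kind and less RNA per cell cannot be told apart.

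After BNC2 knockdown, amino acid transporters were called in both directions and about as often as other genes. Of the 59 genes, 26 passed the filter (more than 1 CPM in at least 3 libraries), and the other 33 had at most 10 counts in every library. With adjusted p-values up to 0.05 taken as calls, 12 of the 26 were up-regulated (46.2%) and 7 were down-regulated (26.9%). In edgeR's quasi-likelihood test over all 12186 genes, 72.9% were called, 36.6% upwards and 36.2% downwards, beside 73.1% of the transporters. Their median log2 fold change was 0.24, beside 0.00 over all genes tested, and their median absolute log2 fold change was 0.54 beside 0.44. The direction of the first median rests on the filter, since without it 49 members were tested and their median was -0.21. In 22 of the 26 genes (84.6%) the libraries of the groups did not overlap, which held for 74.9% of all genes. A change of at least 2-fold was called in 4 (15.4%), beside 18.1% of all genes. SLC6A6 and SLC38A9 were the 2 members that rose this much (8.07% of all genes did so), and SLC3A2 and SLC36A1 the 2 that fell this much (10.1% of all genes).

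**Figure D1:**
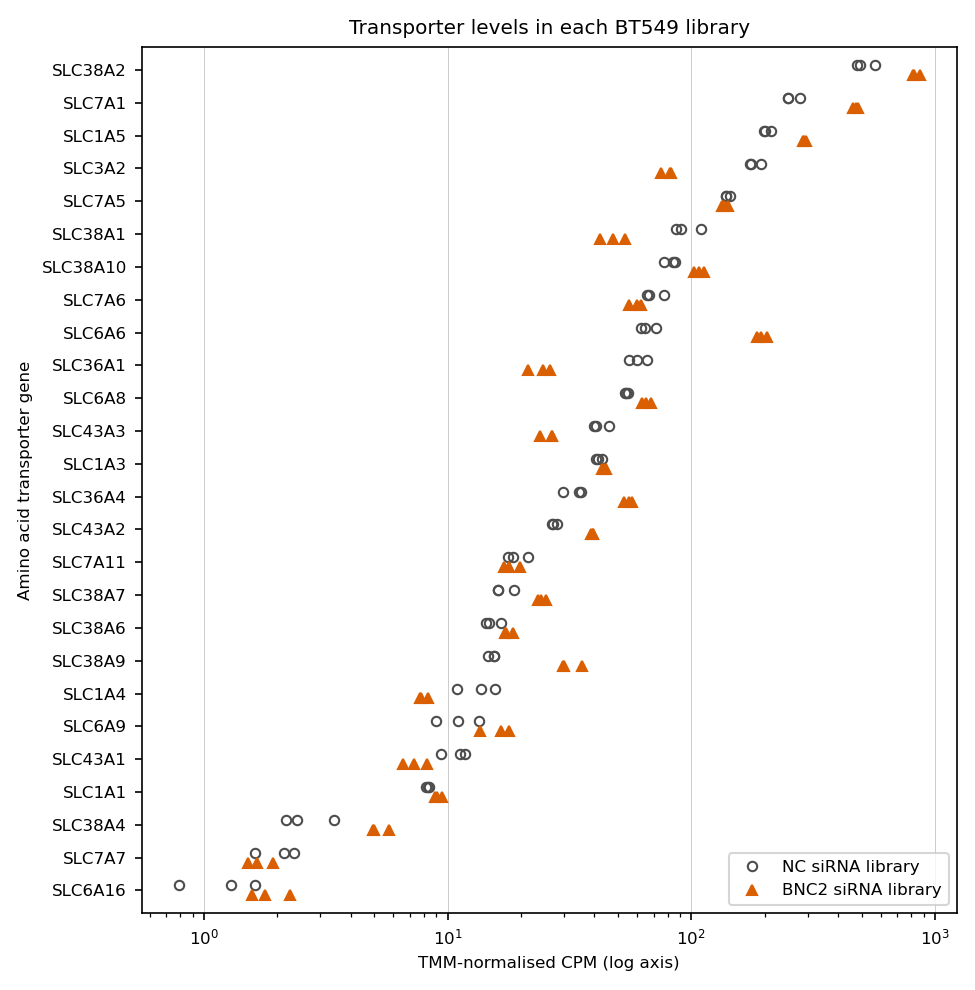
Level of each of the 26 transporter genes tested, as TMM-normalised CPM on a log axis, with 1 point per library (open circles NC siRNA, triangles BNC2 siRNA) and genes ordered by their NC siRNA level. The levels run from 0.789 CPM for SLC6A16 in an NC siRNA library to 867 CPM for SLC38A2 in a BNC2 siRNA library, and SLC6A6, SLC36A1 and SLC3A2 show the widest gaps between the groups.

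Divided by the length of exon each gene covers, the glutamine carrier SLC38A2 was the most abundant transporter transcript with NC siRNA, at 78.7 ± 7.36 CPM per kb (SD, n = 3). SLC1A5, another glutamine carrier, followed at 61.2 ± 2.22 CPM per kb. SLC7A1, SLC7A5 and SLC3A2 came next at 33.8 ± 2.33, 29.6 ± 0.694 and 28.3 ± 1.70 CPM per kb, of which SLC7A5 and SLC3A2 did not differ beyond their spread. With BNC2 siRNA the first 4 places were unchanged, SLC6A6 moved from place 12 to place 5 at 23.5 ± 1.12 CPM per kb, and SLC3A2 moved from place 5 to place 7 at 12.5 ± 0.637 CPM per kb. The place of SLC3A2 rests on the length used, since its exons cover 6392 bases and its longest transcript 2843 bases, and with the latter it moved from place 3 to place 6.

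SLC3A2, on chromosome 11 of GRCh37 from 62623476 to 62656352 on the plus strand, encodes the heavy chain CD98. It stood at 173, 193 and 175 CPM with NC siRNA and at 82.4, 82.1 and 75.2 CPM with BNC2 siRNA. Every BNC2 siRNA library lay below every NC siRNA library, by more than the spread within either group. SLC3A2 was thus reduced to 44.2% of its control level (log2 fold change -1.18, standard error 0.06, adjusted p = 7.2e-11). SLC3A1, the other heavy chain, had 0 to 2 counts in a library.

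Of the 4 light chains tested, which bind CD98, 1 was down-regulated (25% called, beside 72.9% of all genes) and 3 were not called. SLC7A5 (LAT1, chromosome 16, 87863629 to 87903113, minus strand) exchanges large neutral amino acids such as leucine, and reads it shares with its near copies are missing from the counts. It had 145, 139 and 139 CPM with NC siRNA and 136, 133 and 141 CPM with BNC2 siRNA. These groups overlapped, and the log2 fold change was -0.04 (standard error 0.06, 95% interval -0.16 to 0.08, adjusted p = 0.52). SLC7A11 (xCT, chromosome 4, 139085251 to 139163503, minus strand) imports cystine in exchange for glutamate. Its levels were 21.3, 18.5 and 17.7 CPM with NC siRNA and 17, 19.9 and 17.8 CPM with BNC2 siRNA. The libraries again overlapped (log2 fold change -0.07, standard error 0.10, 95% interval -0.28 to 0.14, adjusted p = 0.54). SLC7A6 (y+LAT2), which exchanges cationic for neutral amino acids, was down-regulated to 84.8% of control (log2 fold change -0.24, adjusted p = 0.0083). That call was lost without BNC2 siRNA replicate 1, where the log2 fold change was -0.19 (adjusted p = 0.0503). Its relative SLC7A7 (y+LAT1) was weak, at 2.04 ± 0.373 CPM and 1.70 ± 0.206 CPM, and was not called (adjusted p = 0.34). With reads of both strands counted, SLC7A7 was called as lower (-0.62 on the log2 scale, adjusted p = 0.012). The opposite-strand reads that this setting includes numbered 30, 28 and 22 with NC siRNA and 9, 17 and 5 with BNC2 siRNA. SLC7A8, SLC7A9, SLC7A10 and SLC7A13 had at most 10 counts in a library.

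Summed per kb of exon, the 4 light chains tested came to 41.1 ± 1.72 CPM per kb with NC siRNA and 38.7 ± 1.10 CPM per kb with BNC2 siRNA. The libraries did not overlap in this sum (exact two-sided permutation test, p = 0.1). The ratio of summed light chains to SLC3A2 was 1.59, 1.33 and 1.46 with NC siRNA and 2.94, 2.98 and 3.4 with BNC2 siRNA. The groups did not overlap, and the mean ratio was 2.13-fold higher after BNC2 knockdown (exact two-sided permutation test, p = 0.1, the smallest p that 3 libraries against 3 can give). With the longest transcripts as lengths the ratio had another scale, 0.705 with NC siRNA and 1.49 with BNC2 siRNA, and was 2.12-fold higher. Among the light chains, SLC7A5 made up 71.9% of the summed level with NC siRNA and 74.2% with BNC2 siRNA, and SLC7A6 22.3% and 20.1%. For both shares the groups did not overlap (exact permutation test, p = 0.1 each). The share of SLC7A11 was 4.82% ± 0.277 and 4.89% ± 0.427 (SD, n = 3), a difference within the spread of the libraries (exact permutation test, p = 0.8). These are ratios of transcripts, and no protein was measured.

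**Figure D2:**
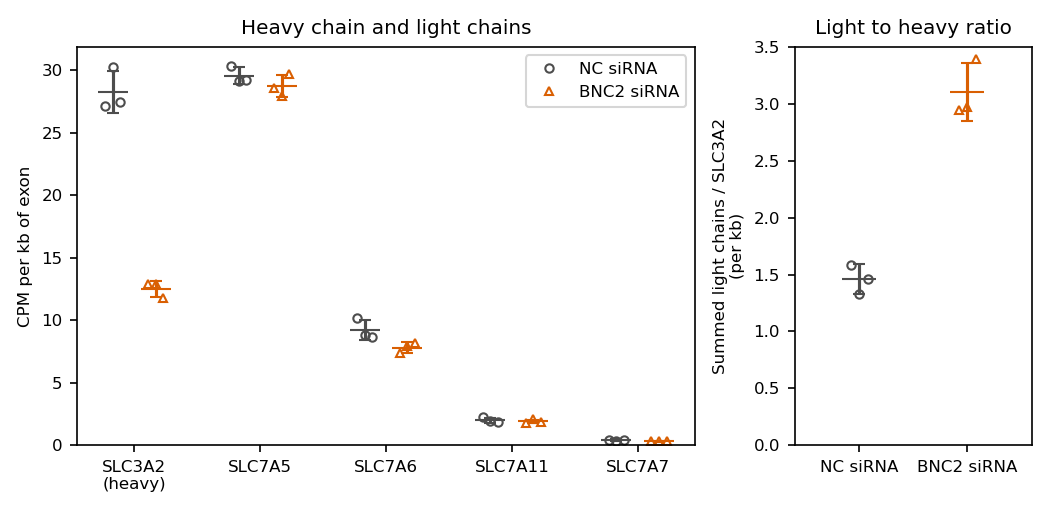
Heavy chain SLC3A2 and the 4 light chains tested, in CPM per kb of exon (left), and summed light chains divided by SLC3A2 in each library (right). Points are libraries, horizontal bars group means and error bars SD (n = 3). SLC3A2 drops from 28.3 to 12.5 CPM per kb while SLC7A5 stays near 29, so that the ratio goes from 1.46 to 3.11.

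Of the cationic amino acid transporters 1 gene, SLC7A1, passed the filter, and it rose. SLC7A1 (CAT1, chromosome 13, 30083551 to 30169825, minus strand) imports arginine and lysine without a heavy chain. It measured 280, 249 and 250 CPM with NC siRNA and 474, 463 and 482 CPM with BNC2 siRNA. All BNC2 siRNA libraries were higher, and the rise was 1.82-fold (log2 fold change 0.87, standard error 0.06, adjusted p = 1.2e-09). Other cationic carriers, namely SLC7A2, SLC7A3, SLC7A4 and SLC7A14, had at most 2 counts in a library.

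SLC1A5 (ASCT2, chromosome 19, 47278140 to 47291851, minus strand) exchanges glutamine and other neutral amino acids. Its levels were 212, 198 and 201 CPM with NC siRNA and 296, 287 and 291 CPM with BNC2 siRNA. The groups were clearly apart (log2 fold change 0.51, standard error 0.05, adjusted p = 2.3e-07). Its closest relative SLC1A4 (ASCT1), which exchanges alanine, serine and cysteine, went the other way, from 13.4 ± 2.33 to 7.93 ± 0.300 CPM (log2 fold change -0.76, adjusted p = 7.4e-05). The glutamate importers of the same family were not called. SLC1A3 (EAAT1) had 41.8 ± 1.02 and 43.8 ± 0.818 CPM, and SLC1A1 (EAAT3) 8.31 ± 0.108 and 9.13 ± 0.320 CPM. In both, the libraries of the groups did not overlap, with adjusted p-values of 0.36 and 0.30. With libraries scaled by total counts, which shifted the median of all genes by -0.076, SLC1A3 stood at -0.0063 in place of 0.07. SLC1A2 had 0 to 9 counts in a library, and SLC1A6 and SLC1A7 had none.

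The system A carriers of the SLC38 family, which pump small neutral amino acids inwards with sodium, also split. SLC38A2 (SNAT2, chromosome 12, 46751971 to 46766556, minus strand) had 567, 491 and 479 CPM with NC siRNA and 809, 817 and 867 CPM with BNC2 siRNA. All 3 BNC2 siRNA libraries exceeded all NC siRNA libraries (log2 fold change 0.70, standard error 0.07, adjusted p = 5.9e-08). SLC38A1 (SNAT1) lies near it on the same chromosome, from 46576846 to 46663800 on the minus strand. Its levels were 109, 90.5 and 86.7 CPM with NC siRNA and 42.2, 47.6 and 53.6 CPM with BNC2 siRNA. Here the BNC2 siRNA libraries were all lower (log2 fold change -0.999, standard error 0.09, adjusted p = 5.8e-08). SLC38A4 (SNAT4), much weaker, rose from 2.67 ± 0.674 to 5.23 ± 0.432 CPM (log2 fold change 0.96, adjusted p = 0.00023). The system N carriers SLC38A3 and SLC38A5 had at most 6 counts in a library.

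Transporters known from lysosomes and other inner membranes included both the steepest fall and 1 of the 2 rises above 2-fold. SLC36A1 (PAT1, chromosome 5, 150816607 to 150871940, plus strand) moves small amino acids with protons, in many cells out of the lysosome. It fell from 66.1, 59.7 and 55.4 CPM with NC siRNA to 24.6, 21.4 and 26.2 CPM with BNC2 siRNA. The groups lay far apart, and 39.8% of the control level was left (log2 fold change -1.33, standard error 0.09, adjusted p = 9.3e-10). Its relative SLC36A4 (PAT4) rose from 33.3 ± 3.04 to 55.1 ± 1.95 CPM (log2 fold change 0.73, adjusted p = 2.8e-07). SLC36A2 and SLC36A3 had 0 counts in every library, which allows up to 3 counts, or 0.168 to 0.191 CPM.

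SLC38A9 (chromosome 5, 54921673 to 55069022, minus strand) is the arginine-regulated lysosomal carrier that signals to mTORC1. Its levels were 14.6, 15.6 and 15.5 CPM with NC siRNA and 29.8, 35.5 and 30.2 CPM with BNC2 siRNA. Each BNC2 siRNA library was well above each NC siRNA library, a 2.09-fold rise (log2 fold change 1.07, standard error 0.09, adjusted p = 2.6e-08). This rise lay between 0.98 and 1.12 on the log2 scale when 1 library was left out. SLC38A7 (SNAT7), a lysosomal exporter of glutamine, rose from 17 ± 1.49 to 24.4 ± 0.907 CPM (log2 fold change 0.52, adjusted p = 7.1e-05). SLC38A10 and SLC38A6 are less well characterised. SLC38A10 rose from 82.3 ± 4.37 to 107 ± 4.99 CPM (log2 fold change 0.38, adjusted p = 4.1e-05). SLC38A6 missed the threshold, at 15.3 ± 1.12 and 17.7 ± 0.740 CPM with groups that did not overlap (log2 fold change 0.22, adjusted p = 0.0501), and passed it under 4 alternatives. They were the likelihood ratio test (adjusted p = 0.0424), no filter on low counts (0.0390), filterByExpr (0.0433) and the fit without NC siRNA replicate 2 (0.0400). SLC38A8 and SLC38A11 had at most 1 count in a library.

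Of the SLC43 family, SLC43A2 (LAT4), which lets large neutral amino acids leave or enter without exchange, rose from 27.3 ± 0.594 to 39.2 ± 0.383 CPM (log2 fold change 0.52, adjusted p = 6.6e-06). SLC43A1 (LAT3), with the same kind of cargo, fell from 10.8 ± 1.27 to 7.35 ± 0.823 CPM (log2 fold change -0.56, adjusted p = 0.0012). SLC43A3, which is known to carry purine bases rather than amino acids, fell from 42.1 ± 3.26 to 25.8 ± 1.69 CPM (log2 fold change -0.71, adjusted p = 9.3e-07).

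**Figure D3:**
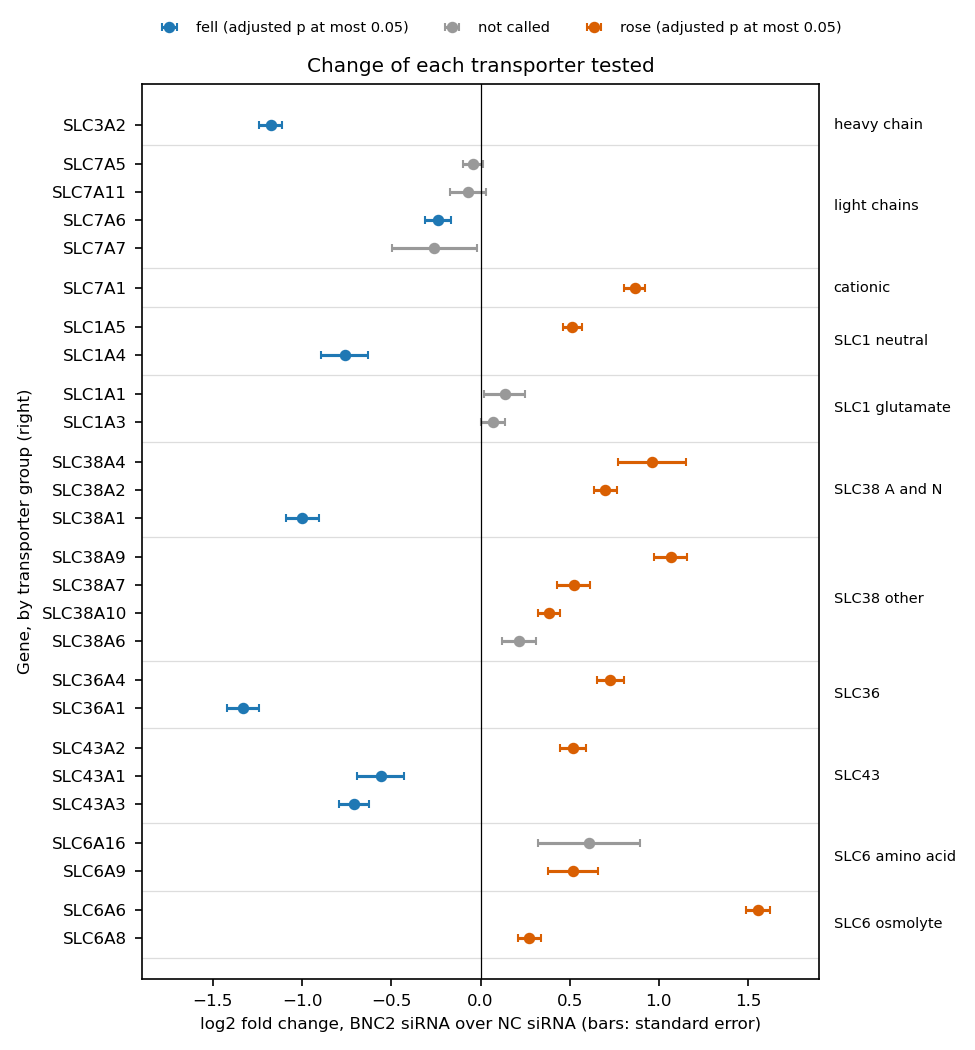
Log2 fold change of BNC2 siRNA over NC siRNA for the 26 transporter genes tested, grouped by family and role, with bars of 1 standard error from edgeR. The points run from -1.33 for SLC36A1 to 1.56 for SLC6A6, and the SLC1 neutral, SLC38 A and N, SLC36 and SLC43 groups each hold members called on either side of 0.

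In 4 pairs of related transporters, then, 1 member rose and the other fell. These pairs were picked after the values had been seen, so their ratios are given as a description without a test. Per kb of exon, SLC38A2 exceeded SLC38A1 by 7.98, 8.34 and 8.50 times with NC siRNA and by 29.5, 26.4 and 24.9 times with BNC2 siRNA. The ratio of SLC1A5 to SLC1A4 went from 40.2, 26.4 and 30.5 to 79.0, 77.3 and 73.2. In both pairs the member that was already more abundant gained. In the SLC36 pair the order turned. SLC36A4 stood at 0.377, 0.358 and 0.458 times the level of SLC36A1 with NC siRNA and at 1.66, 1.86 and 1.45 times with BNC2 siRNA. The SLC43 pair turned as well, with SLC43A2 at 0.787, 0.792 and 0.963 times the level of SLC43A1 with NC siRNA. With BNC2 siRNA these ratios were 1.57, 1.80 and 2.00. This turn rests on the division by length, since in CPM SLC43A2 was already higher with NC siRNA (27.3 against 10.8). With longest transcripts as lengths the order also turned, from 3.36 against 4.31 CPM per kb to 4.82 against 2.92.

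**Figure D4:**
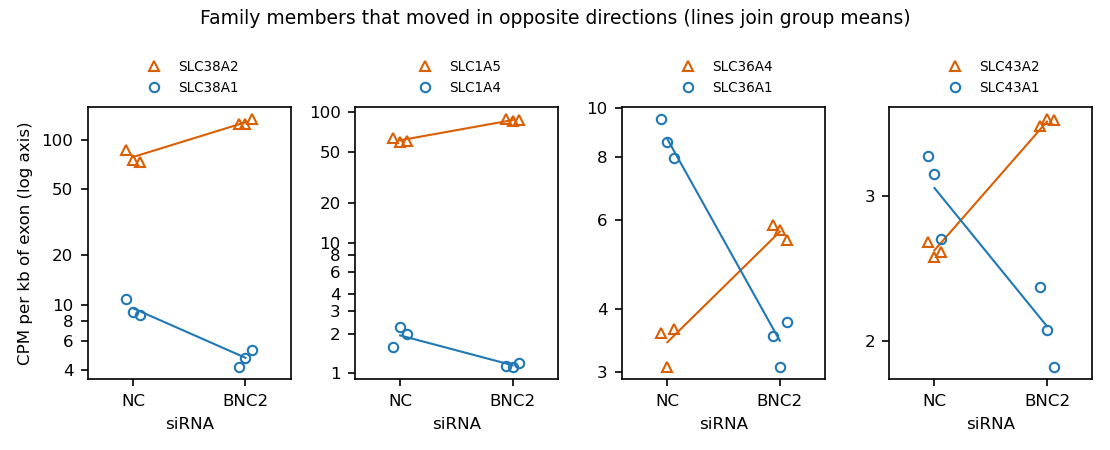
Levels of 4 pairs of related transporters in CPM per kb of exon on log axes, 1 point per library, with lines joining the group means. In the 2 pairs on the left the more abundant gene rises further, and in the 2 on the right the lines cross, with SLC36A4 and SLC43A2 ending above SLC36A1 and SLC43A1.

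The largest rise of all was that of SLC6A6 (TauT, chromosome 3, 14444076 to 14530857, plus strand), which imports taurine, an amino sulphonic acid that cells use as an osmolyte. It had 71.6, 64.6 and 62.2 CPM in the controls and 186, 193 and 204 CPM after BNC2 knockdown. The lowest BNC2 siRNA library was more than double the highest NC siRNA library. SLC6A6 was 2.94-fold up-regulated (log2 fold change 1.56, standard error 0.07, adjusted p = 4.0e-12). SLC6A8, the creatine carrier, rose from 54.1 ± 0.930 to 65.4 ± 2.81 CPM (log2 fold change 0.27, adjusted p = 0.0011). The glycine carrier SLC6A9 (GlyT1) rose from 11.1 ± 2.22 to 16 ± 2.23 CPM (log2 fold change 0.52, adjusted p = 0.0031). SLC6A16, whose cargo is not established, was weak and overlapped between the groups, with 1.23 ± 0.421 and 1.87 ± 0.351 CPM (adjusted p = 0.066). It was called with the likelihood ratio test (adjusted p = 0.0329) and without NC siRNA replicate 3 (adjusted p = 0.0313).

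The remaining SLC6 genes were at or near the limit of detection. The betaine and GABA carrier SLC6A12 had 3, 7 and 4 counts with NC siRNA and 0, 1 and 0 with BNC2 siRNA. Without the filter on low counts, SLC6A12 and SLC38A3 (6, 4 and 2 counts against 1, 0 and 0) were among the genes called as lower. SLC6A13, another GABA carrier, had 0 to 7 counts, SLC6A20 0 to 4, SLC6A14 and the dopamine carrier SLC6A3 0 to 3, and SLC6A2, SLC6A4, SLC6A7, SLC6A17 and SLC6A19 at most 2. SLC6A5, SLC6A11, SLC6A15 and SLC6A18 had none.

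The 59 genes together took 0.204% ± 0.0122 of the counts of an NC siRNA library and 0.255% ± 0.00575 of those of a BNC2 siRNA library (SD, n = 3), with no overlap (exact two-sided permutation test, p = 0.1, the smallest possible). SLC38A2 alone made up 25.7% of the transporter counts with NC siRNA and 31.8% with BNC2 siRNA, and SLC7A1 13.0% and 18.1%. Without these 2 genes, left out after their values were seen, the others took 0.125% ± 0.00470 and 0.128% ± 0.00166 of a library, and the libraries of the groups overlapped.

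Promoter sequences were read for the transporters because ATF4, NRF2 and E-box factors are known to act on genes of this kind. Windows of 300 bases, from 250 before to 50 after a transcription start, came from RefSeq for GRCh38.p14, and 23 of the 26 genes tested matched an entry, with 41 windows. SLC7A11, SLC6A6 and SLC43A3 were not among them. The amino acid response element, searched on both strands as TGATGNAA, was found in 6 of the 23 genes (26.1%), beside 2.62% of the 8772 tested genes with a window and 1.94% of their 12959 windows. SLC3A2, SLC38A1 and SLC1A4, all down-regulated, held it, as did SLC7A1 and SLC1A5, which were up-regulated, and SLC1A3, which was not called. The stretches below, written 5′ to 3′ on the strand of each gene with the element in capitals, are those of the 6 genes. They lie at chr11:62881725-62881748 (SLC3A2), chr12:46266487-46266560 (SLC38A1, minus strand), chr2:64989352-64989428 (SLC1A4), chr13:29595659-29595721 (SLC7A1, minus strand), chr19:46784864-46784951 (SLC1A5, minus strand) and chr5:36596338-36596415 (SLC1A3).
SLC3A2: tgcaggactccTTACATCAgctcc
SLC38A1: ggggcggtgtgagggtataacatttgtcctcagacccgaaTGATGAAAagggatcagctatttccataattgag
SLC1A4: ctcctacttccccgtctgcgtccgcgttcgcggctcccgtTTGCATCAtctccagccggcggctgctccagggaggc
SLC7A1: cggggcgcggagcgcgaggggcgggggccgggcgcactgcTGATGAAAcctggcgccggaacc
SLC1A5: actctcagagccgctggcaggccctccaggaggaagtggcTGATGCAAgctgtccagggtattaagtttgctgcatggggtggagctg
SLC1A3: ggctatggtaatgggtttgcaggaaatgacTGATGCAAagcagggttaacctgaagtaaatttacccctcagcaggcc

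The element began 4 bases before the start of SLC38A1 and 7 before that of SLC1A4, and took in the start itself. Both of these genes fell. The element began 7 bases after the start of SLC7A1, which rose, and 37 after that of SLC3A2, which fell. In SLC1A5, which rose, and SLC1A3, which was not called, it began 97 and 220 bases before a start. In SLC3A2 and SLC1A4 the element was read from the opposite strand. The antioxidant response element, searched on both strands as TGACNNNGC, was in 7 of the 23 genes (30.4%) and in 19.6% of all tested genes with a window. Among its 7 genes, SLC1A5 and SLC7A1 rose, SLC3A2 and SLC7A6 fell, and SLC1A3, SLC7A5 and SLC7A7 were not called. The E-box CACGTG, which reads alike on both strands and whose last 2 letters can open either of the other motifs, was in 7 genes (30.4%), beside 12.6% of all. Of these 7, SLC1A5 and SLC38A7 rose, SLC36A1 and SLC43A1 fell, and SLC7A5, SLC7A7 and SLC6A16 were not called. SLC36A1, the steepest fall, held 2 E-boxes, 43 and 8 bases before its start, and this stretch (chr5:151447520-151447632, plus strand) is shown with both in capitals.
SLC36A1: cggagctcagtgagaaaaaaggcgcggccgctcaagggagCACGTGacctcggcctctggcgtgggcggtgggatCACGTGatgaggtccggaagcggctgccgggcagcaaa

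A match of letters is a description of the sequence and was not tested for binding. Shares of genes also rest on how many windows each gene had, which was not evened out between members and all genes.

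Genes that act on transporter genes were counted next to them. Of 11 such factors, all tested, 3 rose and 5 fell (72.7% called, beside 72.9% of all genes), and their median change was -0.11 on the log2 scale. The largest changes were falls. CEBPB, a partner of ATF4, fell from 156 ± 4.98 to 32 ± 0.803 CPM (log2 fold change -2.29, adjusted p = 2.4e-14). NFE2L2 (NRF2), the factor of the antioxidant element, fell from 119 ± 0.898 to 35.2 ± 1.32 CPM (log2 fold change -1.75, adjusted p = 5.2e-13). DDIT3 (CHOP), a stress-induced factor, fell from 13.8 ± 1.02 to 5.63 ± 0.629 CPM (log2 fold change -1.29, adjusted p = 9.6e-08). ATF4, named after its values were seen, went from 183 ± 8.73 to 162 ± 9.80 CPM, a small fall (log2 fold change -0.17, adjusted p = 0.021). That call was lost without NC siRNA replicate 2 (adjusted p = 0.0541), without BNC2 siRNA replicate 3 (0.113), with a replicate block (0.0546) and without the filter on low counts (0.0527).

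Of 28 genes of amino acid sensing upstream of mTORC1, 26 were tested, of which 10 rose and 8 fell (69.2% called, beside 72.9% of all genes), with a median log2 fold change of 0.03. GATSL3 (CASTOR1), the cytosolic arginine sensor, fell from 4.37 ± 1.12 to 1.09 ± 0.244 CPM (log2 fold change -2.0, adjusted p = 2.2e-06). The Rag GTPase gene RRAGC fell from 78.8 ± 8.07 to 24.6 ± 2.78 CPM (log2 fold change -1.68, adjusted p = 7.6e-11). WDR24, a subunit of the GATOR2 complex, rose from 13.0 ± 1.00 to 28.9 ± 1.28 CPM (log2 fold change 1.16, adjusted p = 7.8e-09). The lysosomal arginine sensor SLC38A9 thus rose while the cytosolic one fell.

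Among 12 mitochondrial amino acid carriers, 10 were tested, 4 rose and 2 fell (60% called, beside 72.9% of all genes), with a median of 0.19. SLC25A13, the aspartate and glutamate carrier, rose from 51.8 ± 2.36 to 112 ± 2.29 CPM (log2 fold change 1.11, adjusted p = 9.4e-11). The ornithine carrier SLC25A15 rose from 20.8 ± 2.02 to 38.7 ± 1.80 CPM (log2 fold change 0.89, adjusted p = 9.3e-08), and the glutamate carrier SLC25A22 fell from 28.6 ± 1.70 to 15.8 ± 1.96 CPM (log2 fold change -0.86, adjusted p = 7.6e-07). Of 9 amino acid carriers of other families 4 were tested, of which 3 fell and none rose, with a median of -0.37. Thus 75% of these 4 were called, beside 72.9% of all genes. The same 75% were called as lower, beside 36.2% of all genes. The 3 were the vesicular glutamate carrier SLC17A7 (log2 fold change -0.74, adjusted p = 6.1e-05), PQLC2, which exports cationic amino acids from lysosomes (-0.43, adjusted p = 0.0013), and the lysosomal cystine exporter CTNS (-0.30, adjusted p = 0.0022).

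**Figure D5:**
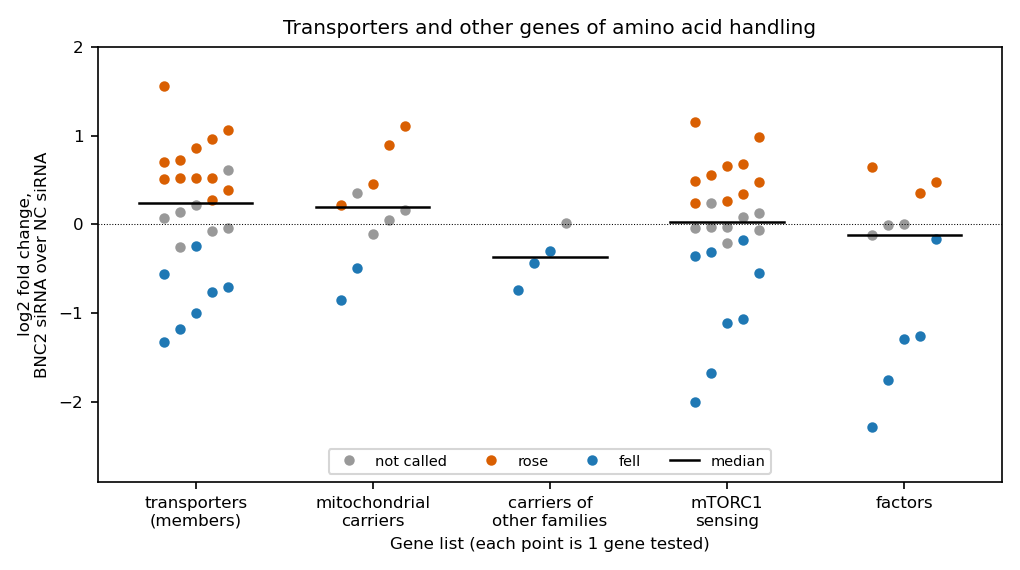
Log2 fold change of BNC2 siRNA over NC siRNA for each gene tested in 5 lists, namely the 26 transporters, mitochondrial carriers, carriers of other families, mTORC1 sensing genes and factors that act on transporter genes. Points are genes coloured by call, and bars mark medians, which lie at 0.24, 0.19, -0.37, 0.03 and -0.11, with rises and falls in every list but the carriers of other families.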

How the data were processed

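The authors aligned single-end reads to hg19 with STAR 2.6.1d and the iGenomes UCSC annotation, and deposited raw counts per gene, of reads that map uniquely. The series table holds, for all 23346 genes, the reverse-strand counts of the library files. Reads on no gene (37.7% to 41.1% per library) were left out. Reads that map to several places are missing, which bears on SLC7A5 and SLC6A8 with their near copies.

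From these counts, libraries were scaled with TMM, the 12186 genes above 1 CPM in 3 or more of the 6 libraries were kept, and the 3 BNC2 siRNA libraries were compared with the 3 NC siRNA libraries by edgeR 4.0.16 (R 4.3.3), quasi-likelihood test, with Benjamini-Hochberg adjustment over all genes tested. P-values and 95% intervals of this fit set the difference between groups against the spread between these replicates. The spread of each gene was estimated with help from all genes tested. The common biological coefficient of variation was 6.16%. On simulated counts of 12186 genes, 200 of them changed 2-fold, the test recovered 194 of the 199 changed genes tested (97.5%), with 7 false calls. In the data 72.9% of genes were called, so this setting differs and its rates cannot be carried over. Lengths and positions came from GENCODE mapped to GRCh37. Alternatives were the likelihood ratio test (the study's test), DESeq2 1.42.0, its size factors, total counts, no filter, filterByExpr, counts of both strands, a replicate block, the longest transcript as length, and leaving out each library. Full values were given for members called with at least a 2-fold change and at least 5 CPM, and for SLC3A2, SLC7A5, SLC7A11, SLC1A5, SLC38A2, SLC7A1 and SLC6A6. SLC38A1 was added after its values were seen. For other lists the 3 largest called changes were named. The members and lists were chosen with earlier results of these data known. Counting limits, such as 3 counts for a count of 0, cover counting error only. Results of 1 member are not reported here.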

Additional observations from a re-analysis of the deposited data

How the results depend on the processing

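All 19 transporter calls were kept under every alternative except the fit without BNC2 siRNA replicate 1, which kept 18 and lost SLC7A6. Members called as higher numbered 12 to 14 and as lower 6 to 10, the most being 14 with the likelihood ratio test and 10 without the filter on low counts. The number of genes called lay between 8084 and 9662. The median log2 fold change of the members tested was 0.17 with scaling by total counts and -0.21 without the filter, where 49 members were tested, and 0.21 to 0.27 with 1 library left out. SLC1A3 stood at -0.0063 with total counts, which shifted the median of all genes by -0.076. The difference in the share of SLC7A11 among light chains, 0.0619 percentage points, ranged from -0.184 to 0.211 with 1 library left out and was negative without NC siRNA replicate 3 (-0.0629) and without BNC2 siRNA replicate 2 (-0.184). The light to heavy ratio rose by 1.5 to 1.73 with 1 library left out and by 0.79 with longest transcripts as lengths, where it was 2.12-fold higher in place of 2.13-fold. SLC7A7 was called only when its opposite-strand reads were included, and these were fewer with BNC2 siRNA. For SLC38A6, SLC6A16 and SLC7A6 the cause of the changed calls was not tested. The groups share replicate numbers, but same-numbered libraries did not deviate together (correlations of -0.208, -0.0811 and -0.130). Such correlations cannot show whether same-numbered libraries were prepared together. With a replicate block, 8400 genes and the members as before, 12 higher and 7 lower, were called. Of the other lists, calls among the mTORC1 sensing genes numbered 15 to 19 in place of 18. They numbered 15 under DESeq2 and under the block, where MIOS, NPRL2 and RRAGB were lost. Calls among the factors numbered 7 or 8, ATF4 being lost under the block and without the filter. Of the mitochondrial carriers 6 or 7 were called. There SFXN2, not called in the main fit (adjusted p = 0.0508), was gained as higher with the likelihood ratio test (0.0353), filterByExpr (0.0457) and other alternatives. Depth limits the 33 members under the filter, at no more than 10 counts in a library.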

Other observations

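The library files also hold reads on the strand opposite to each gene, which the counts above leave out. For SLC6A6 these were 122, 13 and 325 reads with NC siRNA and 20, 27 and 36 with BNC2 siRNA. The 3 controls thus differed widely among themselves on this strand, while their CPM on the counted strand lay between 62.2 and 71.6. SLC7A6 and SLC7A7 had opposite-strand reads equal to 56.2% and 57.8% of their counted reads. SLC3A1 had 40 to 96 opposite-strand reads in a library, against 0 to 2 counted.

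Of the near copies of members in the table, SLC7A5P1 had 10, 21 and 14 counts with NC siRNA and 31, 29 and 27 with BNC2 siRNA. SLC7A5P2 had 37 in each NC siRNA library and 41, 32 and 19 with BNC2 siRNA, and SLC6A10P had none.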
